A study of Rattus norvegicus with 4 samples.

Results

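The solute carriers are the membrane transporters whose gene symbols begin with Slc and a family number. The set described here was the rat genes with such a symbol. The mitochondrial Slc25a family, the fatty acid transporter Slc27a1 and the insulin-regulated glucose transporter Slc2a4 were left out. Membership followed the symbol alone, but the set was chosen with earlier results of these data known. Probes on the arrays named 279 such genes. Of these, 122 were tested because their probe was well above background on at least 2 of the 4 arrays, among 13326 genes or transcripts tested of 26624 measured.

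RNA came from skeletal muscle of male rats aged 15 weeks and was hybridised in 1 colour to 4 Agilent arrays on 1 slide. The SPORTS rat is a hyperactive mutant on the Wistar background, and the wild type (WT) rats were Wistar too. The WT group had 2 arrays, and exercised and sedentary SPORTS animals had 1 array each. The study's design text calls the wild type sedentary, the labels do not name the muscle, the kind of exercise, the mutated gene or any pooling of animals, and both WT titles start with the same number, so these arrays may come from 1 animal. P-values therefore measure only the spread between these arrays, and no value of an exercised or a sedentary SPORTS rat has a replicate.

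Solute carriers move nutrients, ions, metals and waste products across membranes, driven by gradients rather than by splitting ATP. In muscle they are known for exporting lactate from fast fibres and taking it up in slow ones, for importing amino acids, creatine, taurine and carnitine, and for returning pH and cell volume to their set points after contraction. Many members sit in organelles, where they load the Golgi with nucleotide sugars or empty the lysosome.

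Levels below are log2 signals relative to the 75th percentile of each array, which is 0, and describe 1 probe on 4 arrays. They do not rank different genes. The probes that were brightest on the WT arrays belonged to Slc4a3, Slc6a8, Slc20a2, Slc35a4, Slc35b1, Slc29a1, Slc37a4 and Slc16a3. In bulk tissue, fewer cells of a type and less RNA per cell cannot be told apart.

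Between 46% and 50.3% of probes were well above background on each array, with the exercised array lowest. The exercised array also had the lowest 75th percentile of signal, 864 against 1082 to 1111 on the others. Defining muscle genes were present on all 4 arrays: Ckm, Acta1, Mb and Des summed to 1134 and 1129 times the 75th percentile on the WT arrays, 952 on the sedentary and 1336 on the exercised SPORTS array, while Ttn and Neb had no named probe. The 10 fast fibre markers summed to 1335 and 1389 on the WT arrays, 365 on the sedentary and 3368 on the exercised array. The 9 slow fibre markers summed to 2086, 2033, 1951 and 444 in the same order. Of the fast markers 10 of 10, and of the slow markers 0 of 9, were at least 2-fold higher on the exercised than on the sedentary array (9.11% of all genes). In that comparison 8 of 9 slow markers were at least 2-fold lower (12.8% of all genes). The part of fibre content in the results below was not tested.

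In its solute carriers, the array of the exercised animal lay farthest from the rest. Only 1 member differed by at least 2-fold between the WT arrays, the neutral amino acid transporter Slc1a5 (0.82% of 122, against 1.13% of all genes). Between the exercised and the sedentary SPORTS array 45 members did (36.9%, against 21.9% of all genes), between each WT array and the exercised array 46 (37.7%, against 21% and 20.6% of all genes), and between each WT array and the sedentary array 12 (9.84%, against 5.15% and 6.55%). Over all genes, too, the exercised array lay farthest from the rest. The SD of the members' log2 differences was 0.21 for the WT pair, 0.55 and 0.59 for WT against sedentary, and 1.39 for exercised against sedentary.

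**Figure D1:**
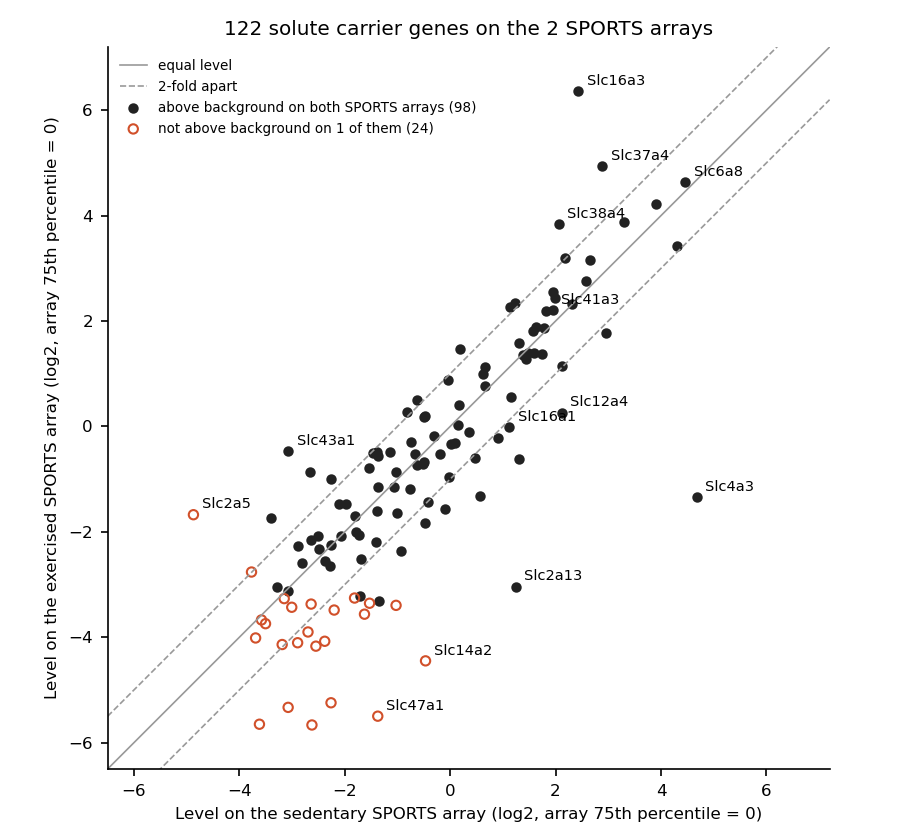
Log2 level of each of the 122 tested solute carriers on the sedentary SPORTS array (horizontal) and on the exercised SPORTS array (vertical), 1 point per gene, with dashed lines at a 2-fold difference and open circles where a probe was not well above background on 1 of these arrays. Slc16a3 lies farthest above the diagonal at 3.93 and Slc4a3 farthest below it at -6.03 (log2 differences).

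Of the 45, 15 members were higher on the exercised array (12.3%, against 9.11% of all genes) and 30 were lower (24.6%, against 12.8%). Part of the lower group was dim: 22 members were not well above background on the exercised array, so that their fold is only a bound, and 2 members, Slc2a5 and Slc22a5, were not well above background on the sedentary array. With those members held to their bounds, 15 were at least 2-fold higher and 24 at least 2-fold lower. Among the 97 members well above background on all 4 arrays the counts were 13 higher (13.4%, against 8.95%) and 15 lower (15.5%, against 8.7%), that is 28 (28.9%, against 17.6%). The median member differed by -0.09 and the median gene by 0.03 on the log2 scale. Both SPORTS samples were single arrays, so these differences have no replicate check.

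Against the WT pair, the sedentary SPORTS array had 13 members past the threshold of an adjusted p of 0.05 in limma of 122 (against 6.27% of all genes), of which 5 rose (against 2.82% of all genes) and 8 fell (against 3.45%). The members that rose were Slc41a3, Slc9a2, Slc47a1, Slc12a7 and Slc28a2, and those that fell were Slc5a3, Slc2a5, Slc30a2, Slc12a2, Slc29a4, Slc6a6, Slc30a1 and Slc46a3. Without the filter on dim probes, 0 of all 26624 genes passed, and thus none of these members. Their differences were the same, with adjusted p from 0.0755 to 0.11 for those among the genes named by rule. The exercised array had 79 (64.8%, against 53.3%), of which 32 rose (26.2%, against 27.3%) and 47 fell (38.5%, against 26%). This fit has 1 residual degree of freedom, from the WT pair, and takes each lone SPORTS array to vary as that pair did. Scaling each array by its median instead moved the median of all genes by 0.23 against WT and turned the exercised split into 49 that rose and 39 that fell. At least a 2-fold difference was reached by 44 members on the exercised array, 13 higher (against 8.61%) and 31 lower (against 12%), (20.6% of all genes), and by 12 on the sedentary array (against 5.62%), 5 higher (against 2.72%) and 7 lower (against 2.9%). Among members above background on all 4 arrays, the exercised count was 28 (against 16%), 12 higher (against 8.43%) and 16 lower (against 7.53%), and the sedentary count was 7 (against 3.41%).

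**Figure D2:**
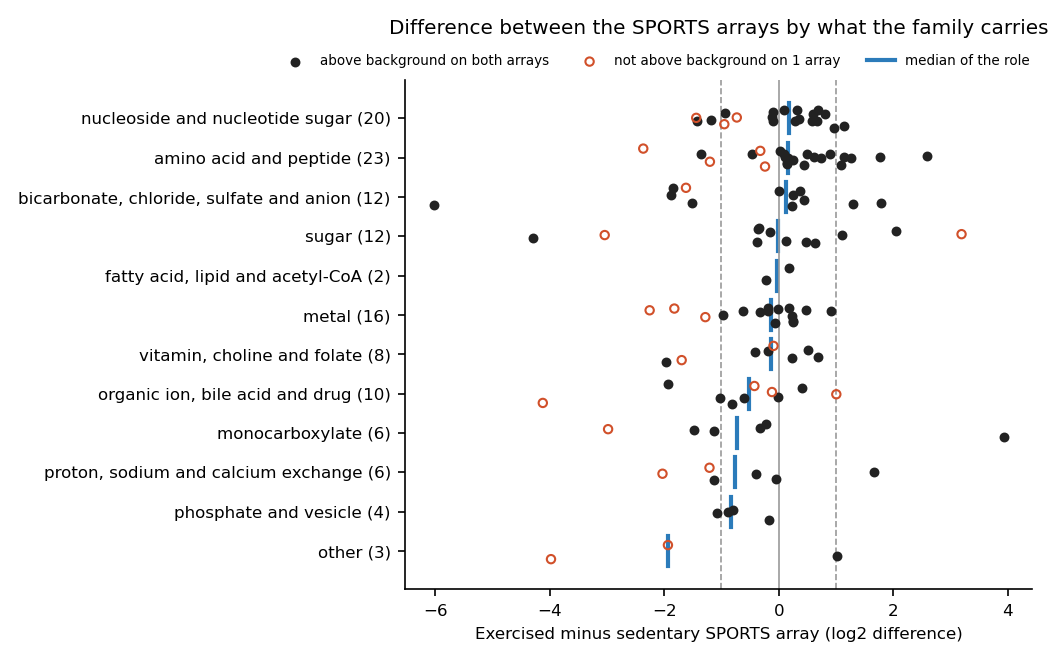
Difference between the exercised and the sedentary SPORTS array for each tested member (log2, horizontal), grouped by what its family carries, with the number of members in brackets, the group median as a blue bar, open circles where a probe was not well above background on 1 array, and dashed lines at 2-fold. Amino acid carriers spread on both sides of 0 with a median of 0.17, while the 6 monocarboxylate carriers hold both the highest point, 3.93, and a median of -0.73.

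The 6 tested monocarboxylate carriers held the largest rise of all members and, beside it, mostly lower values on the exercised array. Slc16a3 encodes MCT4, the lactate exporter of fast muscle fibres. Its probe read 2.98 and 2.94 in WT, 2.43 on the sedentary SPORTS array and 6.36 on the exercised one. The exercised array stood above the other 3, 15.2-fold above the sedentary array, and rose by 3.40 ± 0.07 (SE) over WT in limma (adjusted p = 0.00424), while the sedentary value lay below both WT values by -0.53 without passing the test (adjusted p = 0.0543). Slc16a1 encodes MCT1, which takes lactate up in oxidative fibres. It read 1.29 and 1.37 on the WT arrays, 1.12 on the sedentary and -0.01 on the exercised array. It was thus lowest where Slc16a3 was highest, 2.19-fold below the sedentary array, and differed from WT by -1.34 ± 0.08 (log2, adjusted p = 0.00559).

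The promoter window of Slc16a3 is shown because that gene had the largest positive difference. It spans the start of the gene in RefSeq's GRCr8 table, most of it upstream, at chr10:106712078-106712377 on the plus strand. Capitals in this and the following windows mark the E-box CANNTG, the motif of muscle basic helix-loop-helix factors, and none was found here.
Slc16a3: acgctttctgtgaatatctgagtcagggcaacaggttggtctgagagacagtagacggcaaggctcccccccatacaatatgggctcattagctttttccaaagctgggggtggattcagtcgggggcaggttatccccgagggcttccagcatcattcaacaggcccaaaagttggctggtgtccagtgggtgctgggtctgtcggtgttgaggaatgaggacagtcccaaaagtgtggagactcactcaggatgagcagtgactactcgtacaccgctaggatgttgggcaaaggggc
Searched on both strands, CANNTG occurred in 63 of the 98 members with an entry (64.3%), in 9 of 14 members at least 2-fold higher on the exercised array (64.3%), in 16 of 22 that were at least 2-fold lower (72.7%), in 63.2% of 6978 tested genes and in 73.2% of all 27457 promoters. Its version CACGTG, which also counts as a CANNTG, occurred in 15 of the 98 (15.3%), against 9.92% of tested genes and 7.08% of all promoters. The hypoxia core ACGTG, which lies inside CACGTG, occurred in 30 of the 98 (30.6%), against 26.8% and 20.9%. A match is a description of the letters in this window only.

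Slc16a7, the high-affinity carrier MCT2, read -3.15 and -3.41 on the WT arrays, -2.26 on the sedentary array and -5.24 on the exercised array, where its probe was not well above background. It was at least 2.26-fold lower there than on the sedentary array, and its difference from WT (adjusted p = 0.00788) did not pass with dim values at a floor (adjusted p = 0.428). Slc16a6 was 2.78-fold lower on the exercised than on the sedentary array. Slc16a10, an aromatic amino acid carrier, read -0.78 and -0.96 in WT, -1.73 on the sedentary and -2.05 on the exercised array. Both SPORTS arrays thus lay below WT for Slc16a10, and the exercised fall passed the test (adjusted p = 0.0106). Of the 6, 1 rose and 4 fell on the exercised array against WT (27.3% and 26% of all genes), with Slc16a7 among the 4, and none passed the test on the sedentary array.

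Genes that work with the lactate carriers also differed. Bsg, the chaperone of MCT1 and MCT4, lay between 4.02 and 4.44 on all 4 arrays, at -0.38 (log2) from WT on the exercised one. Nptn, another listed chaperone, read 3.32, 3.36, 3.31 and 4.04 (WT, WT, sedentary, exercised). Emb, the chaperone that pairs with MCT2, read -0.71 and -0.78 in WT, -2.27 on the sedentary and -5.50 on the exercised array. On the last it was not well above background. Emb was thus at least 6.45-fold below WT on the exercised array, and fell by 1.53 on the log2 scale in the sedentary one (adjusted p = 0.0342). Ldha, the lactate dehydrogenase subunit of fast muscle, read 6.63, 6.80, 6.17 and 8.45 (WT, WT, sedentary, exercised), and Ldhb, the subunit of slow muscle and heart, read 7.33, 7.29, 7.48 and 4.42. Both lactate dehydrogenase genes, like both lactate carriers, had the exercised array at one end. The sedentary array lay nearer to WT, at -0.53 for Slc16a3, -0.55 for Ldha, -0.21 for Slc16a1 and 0.17 for Ldhb (log2). For Slc16a3 and Ldha it lay outside the WT pair, on the side away from the exercised array.

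**Figure D3:**
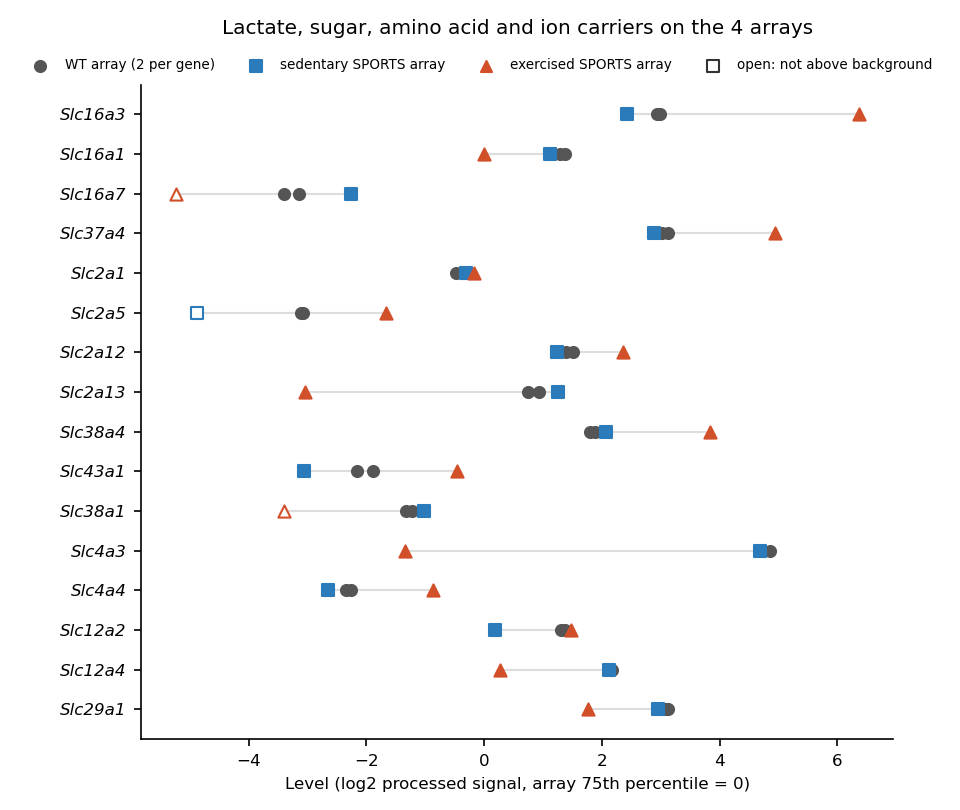
Log2 level (horizontal, array 75th percentile = 0) of selected carriers of lactate, sugars, amino acids and ions, 1 row per gene, with grey circles for the WT arrays, a blue square for the sedentary and a red triangle for the exercised SPORTS array, open where the probe was not well above background. The WT points lie close together, and in most rows the exercised array departs from them, as for Slc4a3, where it reads -1.34 and the other arrays between 4.69 and 4.85.

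Among the 12 tested sugar and polyol carriers, values on the exercised array went both ways, with 3 at least 2-fold higher and 2 at least 2-fold lower by measured value than on the sedentary array (9.11% and 12.8% of all genes), 1 of the lower ones with a bound under 2-fold, and a median of -0.02. The group includes Slc5a6, a vitamin carrier placed there by its family number. Slc37a4 moves glucose 6-phosphate into the endoplasmic reticulum. It read 3.13 and 3.02 in WT, 2.89 on the sedentary and 4.94 on the exercised array. The exercised array stood 4.15-fold above the sedentary one and rose by 1.86 ± 0.08 (log2) over WT (adjusted p = 0.00482). Slc2a5, the fructose transporter GLUT5, read -3.07 and -3.12 in WT, -4.87 on the sedentary array, where it was not well above background, and -1.67 on the exercised array. The SPORTS arrays lay on opposite sides of the WT pair, at least 1.62-fold lower in the sedentary animal (adjusted p = 0.0319) and 1.42 (log2) higher in the exercised one (adjusted p = 0.0049), a span of at least 4.34-fold. Slc2a12, or GLUT12, read 1.39, 1.5, 1.24 and 2.35 in the same order, with the exercised array 2.16-fold above the sedentary one. Slc2a1, the basal glucose transporter GLUT1, lay between -0.47 and -0.18 on all 4 arrays, with neither SPORTS array past the test.

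The inositol transporters were low on the exercised array. Slc2a13 carries myo-inositol with protons. It read 0.74 and 0.93 in WT, 1.25 on the sedentary array and -3.04 on the exercised array, 19.6-fold lower than the sedentary one, and fell by 3.88 ± 0.12 (log2) against WT (adjusted p = 0.00426). Slc5a3, which carries myo-inositol with sodium and is known to follow osmotic stress, read -0.60 and -0.35 in WT, -2.27 on the sedentary and -2.65 on the exercised array. Here both SPORTS arrays lay below both WT arrays and close to each other, at -1.80 ± 0.14 and -2.18 ± 0.14 (log2) from WT (adjusted p = 0.0411 and 0.0066). Slc45a3, a sugar carrier described in prostate, read -2.62 on the sedentary array and -5.66, not well above background, on the exercised array, at least 1.76-fold lower. Its distance below WT, -2.07, became 0.11 when dim values were set to a floor.

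Slc5a3 is one of the members on which the comparison of both SPORTS arrays with WT turns, and its promoter window, chr11:44799537-44799836 (GRCr8, plus strand), held 2 E-boxes, in capitals.
Slc5a3: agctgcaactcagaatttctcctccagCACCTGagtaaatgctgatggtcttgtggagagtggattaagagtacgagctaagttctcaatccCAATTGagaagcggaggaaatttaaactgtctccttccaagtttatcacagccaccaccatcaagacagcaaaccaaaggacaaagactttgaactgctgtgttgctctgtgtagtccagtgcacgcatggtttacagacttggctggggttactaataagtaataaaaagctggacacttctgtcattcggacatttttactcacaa
Neither of them was a CACGTG, and the window held no ACGTG.

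Of the 23 tested amino acid and peptide carriers, 5 were at least 2-fold higher and 3 at least 2-fold lower by measured value on the exercised against the sedentary array (9.11% and 12.8% of all genes), 1 of the lower ones with a bound under 2-fold, with a median of 0.17. Against WT, 9 rose and 4 fell on the exercised array (27.3% and 26% of all genes), and 1 fell on the sedentary array (3.45% of all genes). Roles followed family numbers, so these counts include Slc7a6os, which is no transporter, the noradrenaline carrier Slc6a2 and the taurine carrier Slc6a6. On the exercised array Slc7a6os and Slc6a2 lay above WT by 0.75 and 0.32 (log2). Slc38a4, a sodium-coupled carrier of small neutral amino acids, read 1.88 and 1.80 in WT, 2.07 on the sedentary and 3.84 on the exercised array. It rose by 2.0 ± 0.07 (log2) on the exercised array (adjusted p = 0.00446), and the other 3 arrays lay close together. Slc43a1, the branched-chain and aromatic amino acid facilitator LAT3, read -1.89, -2.16, -3.07 and -0.47 (WT, WT, sedentary, exercised). The SPORTS arrays lay on opposite sides of WT and 6.06-fold apart, and the exercised rise passed the test (adjusted p = 0.0111) while the sedentary value did not (adjusted p = 0.0601). Slc7a8, the light chain LAT2, read -1.70 and -1.97 in WT, -0.63 on the sedentary and 0.51 on the exercised array. Both SPORTS arrays lay above both WT arrays, with the test passed by the exercised array (adjusted p = 0.00655) and not by the sedentary one (adjusted p = 0.0548).

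A relative of Slc38a4 stood at the other end. Slc38a1, another importer of small neutral amino acids, read -1.23 and -1.33 in WT, -1.03 on the sedentary array and -3.39 on the exercised array, where it was not well above background and at least 5.16-fold lower than on the sedentary array. Slc38a2, the relative that amino acid shortage is known to induce, lay between 2.66 and 3.15 on all arrays and passed no test (adjusted p = 0.0521 for the exercised array). Slc3a2, the heavy chain that LAT light chains need, rose by 0.36 ± 0.08 (log2) on the exercised array (adjusted p = 0.0488), which became 0.0943 after quantile normalization. Its light chain Slc7a5 was well above background on 1 WT array alone and was not tested. Slc1a5 read -1.81 and -0.65 on the WT arrays, a gap that spanned most of its range, and no difference from WT passed the test.

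Creatine and taurine enter muscle through carriers of the same family. Slc6a8, the creatine transporter that fills the muscle phosphocreatine store, read 4.51, 4.55, 4.46 and 4.63 (WT, WT, sedentary, exercised) and no difference passed the test. Slc6a6, the taurine transporter, read 0.21, 0.17, -0.67 and -0.53, with both SPORTS arrays below both WT arrays. It fell by 0.86 ± 0.06 (log2) on the sedentary array (adjusted p = 0.0403) and by 0.72 on the exercised one (adjusted p = 0.00993). Of the genes of the amino acid stress response that were listed beside these carriers, Chac1, which degrades glutathione, read -0.01, -0.15, -1.88 and 1.78 in the same order, and Atf4, the transcription factor that drives the response, read 4.74, 4.84, 4.98 and 5.85. Ddit3, a factor of the same response, fell by 1.09 and Trib3, which restrains it, by 0.58 on the exercised array against WT (adjusted p = 0.00707 and 0.0178). Of the 5 tested genes, 2 rose and 2 fell there (27.3% and 26% of all genes). Chac1, like Slc43a1, had the SPORTS arrays on opposite sides of WT.

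The ion carriers of pH and cell volume held the largest difference of all members. Slc4a3 encodes AE3, a chloride and bicarbonate exchanger known from heart and brain. It read 4.74 and 4.85 in WT, 4.69 on the sedentary array and -1.34 on the exercised array, with the probe well above background on all 4 arrays. The other 3 arrays lay close together and the exercised array 65.3-fold below the sedentary one, and it fell by 6.14 ± 0.08 (log2) against WT (adjusted p = 0.00424). Slc4a4, the sodium bicarbonate cotransporter NBCe1, went the other way, with -2.26, -2.34, -2.65 and -0.87 (WT, WT, sedentary, exercised) and a 3.44-fold higher value on the exercised than the sedentary array. Slc4a7, its relative NBCn1, read -1.73, -1.72, -1.71 and -3.22, a 2.85-fold lower value on the exercised array.

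The window of Slc4a3, shown because its drop was the deepest, was chr9:84485405-84485704 (GRCr8, plus strand) and held no E-box and no ACGTG.
Slc4a3: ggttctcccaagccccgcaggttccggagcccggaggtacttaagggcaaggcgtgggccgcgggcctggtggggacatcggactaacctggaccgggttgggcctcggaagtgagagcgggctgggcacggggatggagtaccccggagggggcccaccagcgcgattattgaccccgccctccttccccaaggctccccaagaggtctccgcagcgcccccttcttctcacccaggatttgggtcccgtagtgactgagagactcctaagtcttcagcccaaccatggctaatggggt
For Slc16a3 and Slc4a3, the members at the 2 ends of the difference between the SPORTS arrays, the window thus held none of the motifs searched.

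Among the chloride cotransporters, Slc12a2, or NKCC1, which brings sodium, potassium and chloride into the cell, read 1.30 and 1.38 in WT, 0.18 on the sedentary and 1.48 on the exercised array. The sedentary array alone departed, falling by 1.16 ± 0.07 (log2) against WT (adjusted p = 0.0383), and a second probe of the gene gave -0.92. Slc12a4, or KCC1, which lets potassium and chloride out, read 2.17, 2.14, 2.12 and 0.27 (WT, WT, sedentary, exercised), 3.60-fold lower on the exercised than on the sedentary array. Slc12a7, or KCC4, of the same kind, read -0.36, -0.36, 0.57 and -1.31, so that the sedentary array lay above WT (adjusted p = 0.0383) and the exercised one below it (adjusted p = 0.00653). A second probe of Slc12a7 gave 0.09 for the sedentary difference, so its probes disagreed. Of the 12 tested members of these anion families, 2 were at least 2-fold higher and 5 at least 2-fold lower by measured value on the exercised than on the sedentary array (9.11% and 12.8% of all genes), 1 of the lower ones with a bound under 2-fold.

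Of 6 tested exchangers of protons, sodium and calcium, 1 was at least 2-fold higher and 3 were at least 2-fold lower by measured value on the exercised than on the sedentary array (9.11% and 12.8% of all genes), 2 of the lower ones without a bound of 2-fold. Slc9a2, an exchanger known from epithelia of gut and kidney, read -1.51, -1.61, 0.09 and -0.31 (WT, WT, sedentary, exercised). Both SPORTS arrays lay above WT, by 1.65 ± 0.08 in the sedentary (adjusted p = 0.0342) and by 1.24 in the exercised animal (adjusted p = 0.00647). Slc9a5, known from brain, was 3.16-fold higher on the exercised than on the sedentary array. Slc9b2 was not well above background on the exercised array, and its difference from the sedentary array, -2.03, became 0.18 with dim values at a floor, so that no direction is given for it. Slc8a1, the cardiac sodium and calcium exchanger, was well above background on the exercised array alone and Slc8a3, the muscle one, on none.

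The sodium pump sets the gradient on which many of these carriers draw, and 5 of its subunit genes were tested. Atp1b2, the beta subunit known from glia and fast fibres, read 1.07, 1.01, 1.03 and 6.64 (WT, WT, sedentary, exercised), far above the other arrays on the exercised one. Atp1b1 fell by 1.09 (log2) there. Over all 27 tested of 30 listed genes that work with solute carriers (chaperones, sodium pump, amino acid response, cotransporter kinases, metal binding, lactate and creatine enzymes, sugar uptake), 12 rose and 9 fell on the exercised array against WT (27.3% and 26% of all genes), and 1 rose and 3 fell on the sedentary array (2.82% and 3.45%).

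The metal carriers held the member with the largest gain that both SPORTS animals had. Slc41a3, of the magnesium carrier family, read 0.22 and 0.14 in WT, 1.95 on the sedentary and 2.20 on the exercised array. Both SPORTS arrays lay well above both WT arrays, and the rise passed the test on the sedentary array, at 1.77 ± 0.07 (log2, adjusted p = 0.0322), and on the exercised one, at 2.02 (adjusted p = 0.00446). Slc41a1, which exports magnesium in exchange for sodium, instead read 2.44, 2.47, 2.13 and 1.16 (WT, WT, sedentary, exercised).

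The promoter window of Slc41a3, at chr4:124684717-124685016 (GRCr8, plus strand), held 3 E-boxes, of which 1 was a CACGTG.
Slc41a3: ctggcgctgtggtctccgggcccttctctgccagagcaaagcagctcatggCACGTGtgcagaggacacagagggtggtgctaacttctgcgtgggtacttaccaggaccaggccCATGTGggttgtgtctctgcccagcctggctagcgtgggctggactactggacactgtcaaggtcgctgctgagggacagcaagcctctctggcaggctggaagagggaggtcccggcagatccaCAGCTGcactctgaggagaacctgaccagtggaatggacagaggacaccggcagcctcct
The same CACGTG accounts for both of its ACGTG matches, 1 on each strand.

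Among the zinc exporters of the Slc30 family, Slc30a2 and Slc30a1 were lower on both SPORTS arrays. Slc30a2, which loads zinc into vesicles, read -0.29 and -0.26 in WT, -1.53 on the sedentary and -3.35 on the exercised array, the last not well above background. The arrays formed steps of WT, sedentary and exercised, with a fall of 1.25 ± 0.06 (log2) on the sedentary array (adjusted p = 0.0343) and an exercised level at least 8.44-fold below WT (adjusted p = 0.00424). Slc30a1, the zinc exporter of the cell surface, read -2.39, -2.49, -3.29 and -3.04 in the order WT, WT, sedentary and exercised. Its fall on the sedentary array, 0.85 ± 0.08 (log2), had an adjusted p of 0.0479 that became 0.0507 after quantile normalization and 0.0538 with the median over probes, and the exercised array fell by 0.60 (adjusted p = 0.0195, and 0.0595 without the filter on dim probes). Other members of the family went both ways on the exercised array: Slc30a3 fell by 0.59 and Slc30a5, which fills the secretory pathway, rose by 0.51 (log2, adjusted p = 0.0232 and 0.0196). Of 16 tested metal carriers, 4 rose and 7 fell on the exercised array against WT (27.3% and 26% of all genes), 3 of the 7 not well above background there, and 1 rose and 2 fell on the sedentary array (2.82% and 3.45% of all genes). The zinc importer Slc39a14 was well above background on the sedentary array alone.

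Macrophages are known for a pair of iron carriers, and both were lower on the exercised than on the sedentary array. Slc40a1, the iron exporter ferroportin, read -1.96, -2.24, -2.20 and -3.48 (WT, WT, sedentary, exercised), at least 2.35-fold lower on the exercised than on the sedentary array. Slc11a1, the iron and manganese carrier of phagosomes, read -3.25, -3.67, -3.07 and -5.33, at least 1.28-fold lower, and its difference from WT (adjusted p = 0.0156) did not pass with dim values at a floor (adjusted p = 0.967). Neither was well above background on the exercised array. The 7 tested of 8 macrophage markers summed to 51.3 and 35.2 times the 75th percentile in WT, 80.0 on the sedentary and 17.1 on the exercised array, with Adgre1 and Csf1r not well above background on the last. All 7 were at least 2-fold lower on the exercised than on the sedentary array (12.8% of all genes). The 7 fibroblast and tendon markers, which summed to 231, 219, 143 and 48.5 in the same order, were so too. Against WT, the sedentary array differed by -0.10 (log2) for Slc40a1, 0.56 on its second probe, and by 0.39 for Slc11a1. The median of the 7 macrophage markers was 1.06 in that comparison. The part of these cells in the results for Slc40a1 and Slc11a1 was not tested.

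Nucleosides enter cells through Slc29 and Slc28 carriers. Slc29a1, the equilibrative transporter ENT1, which takes up adenosine, read 3.13 and 3.07 in WT, 2.95 on the sedentary and 1.77 on the exercised array. The exercised array stood alone, 2.27-fold below the sedentary one (against WT adjusted p = 0.00537). Slc29a4, which also carries monoamines, read -2.15, -2.04, -3.19 and -4.14 (WT, WT, sedentary, exercised), the last not well above background and at least 2.53-fold below WT. Both SPORTS arrays lay below WT on that probe, but a second probe gave -0.05 for the sedentary and -0.14 for the exercised difference, so its probes disagreed. With the median over probes the sedentary difference was -0.57 (log2) and no longer passed the test. Slc28a2, the concentrative transporter of purine nucleosides, read -0.83, -0.84, -0.02 and -0.95, so that the sedentary array alone rose (adjusted p = 0.0407).

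The Golgi and endoplasmic reticulum carriers of nucleotide sugars made up most of the 20 tested members of this role, of which 8 rose and 4 fell on the exercised array against WT (27.3% and 26% of all genes) and 1 rose and 1 fell on the sedentary array (2.82% and 3.45%). Slc35a3, which carries UDP-N-acetylglucosamine, read -2.00, -2.16, -1.14 and -0.47 (WT, WT, sedentary, exercised), with both SPORTS arrays above both WT arrays. Its rise passed the test on the exercised array (adjusted p = 0.00655) and not on the sedentary one (adjusted p = 0.0514). Slc35c2 was 2.20-fold higher, and Slc35a2, the UDP-galactose carrier, 2.70-fold lower, on the exercised than on the sedentary array. Slc35a4 and Slc35b1, with bright probes, rose on the exercised array by 0.34 ± 0.07 and 0.50 (log2, adjusted p = 0.0354 and 0.018), but without the filter on dim probes neither passed (adjusted p = 0.103 and 0.0585), nor did Slc35a4 after quantile normalization (adjusted p = 0.0993).

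Of the 10 tested carriers of organic ions, 1 rose and 7 fell on the exercised array against WT (27.3% and 26% of all genes), 2 of the 7 not well above background there. Slc47a1, or MATE1, which exports organic cations in exchange for protons, read -2.84 and -2.90 in WT, -1.37 on the sedentary and -5.50, not well above background, on the exercised array. The sedentary array lay above WT by 1.49 ± 0.07 (log2, adjusted p = 0.0327), and the exercised one at least 4.17-fold below the sedentary and at least 1.48-fold below WT. Slc22a17, a receptor for lipocalin, read 1.51, 1.51, 1.31 and -0.62 (WT, WT, sedentary, exercised), a 3.82-fold lower value on the exercised than the sedentary array. Slc22a5, the carnitine importer OCTN2 that supplies fatty acid oxidation, read -3.56, -3.42, -3.77 and -2.76, with the sedentary array not well above background. It was at least 2.01-fold higher on the exercised than on the sedentary array and rose over WT (adjusted p = 0.0187, and 0.0527 with a variance trend).

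Carriers of urea, choline and lysosomal products included several low values on the exercised array. Slc14a2, a urea transporter known from kidney, read 0.46 and 0.15 in WT, -0.47 on the sedentary and -4.45, not well above background, on the exercised array. It was at least 7.82-fold below the sedentary array and at least 13.4-fold below WT (adjusted p = 0.00444), but a second probe of the gene was not well above background on any array. Slc46a3, a lysosomal carrier, read -1.56, -1.59, -2.38 and -4.07 (WT, WT, sedentary, exercised), the last not well above background, with the sedentary fall of 0.80 ± 0.06 (log2) past the test (adjusted p = 0.0413) and the exercised level at least 3.62-fold below WT. Slc44a1, the choline transporter, was 3.90-fold lower on the exercised than on the sedentary array.

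The phosphate importers were lower on the exercised array, too. Slc20a2 read 4.0 and 3.98 in WT, 4.30 on the sedentary and 3.42 on the exercised array, where it fell by 0.57 ± 0.06 (log2, adjusted p = 0.0133). Slc20a1 read -0.03, 0.03, 0.48 and -0.60 in the same order. For both, the sedentary array lay above and the exercised array below the WT pair, and the sedentary values did not pass the test (adjusted p = 0.0862 and 0.0602). The 4 tested carriers of phosphate and vesicles differed from WT by -1.03 to -0.43 (log2) on the exercised array, against 0.003 for the median gene. They include Slc17a5, a lysosomal carrier, and Slc18a2, a vesicular monoamine carrier, neither of them a phosphate importer. The 8 tested vitamin, choline and folate carriers went both ways there. By measured value they differed by -2.50 to 0.95, with a median of -0.30.

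Comparing both SPORTS arrays with both WT arrays asks what the mutant animals shared whether exercised or not. In limma no member passed an adjusted p of 0.05 in this 2 against 2 fit (0% of all genes), and 16 had an unadjusted p below 0.05 (13.1%, against 7.37%), 8 of them higher (against 3.39%) and 8 lower (against 3.98%). By level, in 6 members each SPORTS array lay at least 2-fold beyond each WT array, on the same side (4.92%, against 1.92% of all genes). Slc41a3, Slc7a8 and Slc9a2 were the 3 higher ones (against 0.645%), with mean differences of 1.89 ± 0.16, 1.77 ± 0.47 and 1.45 ± 0.20 (log2, SE). Slc29a4, Slc5a3 and Slc30a2 were the 3 lower ones (against 1.28%), with a mean difference of -1.99 ± 0.22 for Slc5a3. For Slc29a4 and Slc30a2 the exercised value was not well above background. Their distances from WT are thus the bounds given above, at least 2.53-fold and at least 8.44-fold on that array. A second probe of Slc29a4 gave -0.05 (sedentary) and -0.14 (exercised) against WT. With the median over probes the count of such members was 5 rather than 6. For Slc41a3, Slc9a2 and Slc5a3 the exercised array differed from the sedentary one by 0.25, -0.40 and -0.38 (log2), whereas for Slc7a8, Slc30a2 and Slc29a4 the exercised array lay farther out than the sedentary one. For the 4 members measured on all arrays, the adjusted p in this fit lay between 0.3 for Slc41a3 and 0.604 for Slc7a8.

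**Figure D4:**
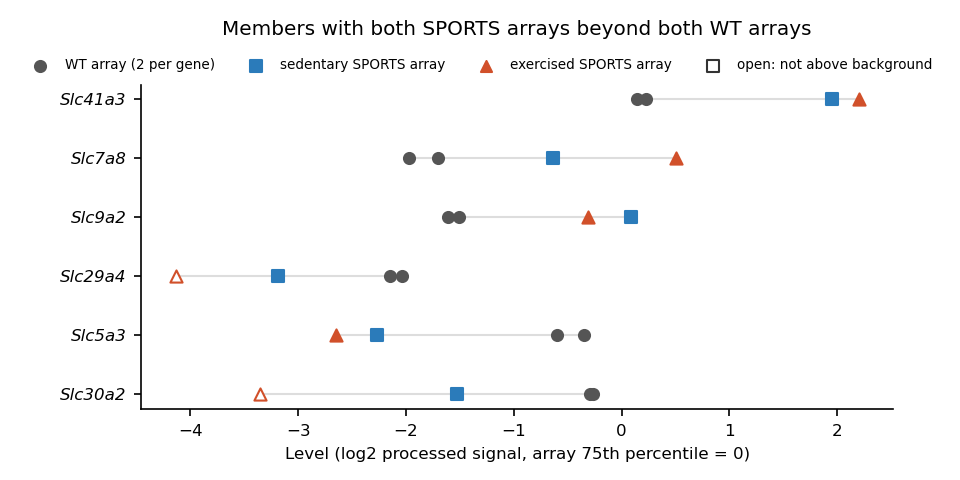
Log2 level (horizontal, array 75th percentile = 0) of the 6 members whose SPORTS arrays both lay at least 2-fold beyond both WT arrays, 1 row per gene, with grey circles for WT, a blue square for the sedentary and a red triangle for the exercised array, open where the probe was not well above background. Slc41a3, Slc7a8 and Slc9a2 have both SPORTS points to the right of WT, and Slc29a4, Slc5a3 and Slc30a2 to the left.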

How the data were processed

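Expression was measured on 4 one-colour Agilent arrays of rat skeletal muscle: 2 WT, 1 exercised and 1 sedentary SPORTS. The deposited scanner files hold background-corrected spot intensity, made with Agilent Feature Extraction 10.7.1.1 per the file headers. The authors also deposited a table of log2 values. Its differences between arrays follow the scanner values, it is centred on each gene's median (so levels in it are relative), and it was used as an alternative only.

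Control spots and probes with outlier flags were left out (352 of 30367 probes), spots of a probe were averaged, and log2 intensity was taken relative to each array's 75th percentile. Among 30015 probes, 59.4% took 1 symbol from RefSeq's GRCr8 gene table and the rest kept their accession. The probe with the highest mean over arrays stood for its gene, which had to be well above background on at least 2 arrays. Of the 279 solute carriers with a probe, 139 were above background on no array and 18 on 1 array, and these 157 were not tested. Those tested include Slc7a6os, which carries the symbol but is no transporter. A fold for a probe not well above background in a group is a bound, set by the higher of the probe's own signal and the dimmest signal called well above background on that array. No spot was saturated. The number of arrays limits the precision.

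Differences were tested with limma 3.58.1 in R 4.3.3 and adjusted by Benjamini-Hochberg over all 13326 genes. One fit had 3 groups (1 residual degree of freedom), with each lone array taken to vary like the WT pair, and another set both SPORTS against both WT arrays (2 residual degrees of freedom). Exercised against sedentary has 1 array a side and no test. Alternatives were normexp background correction (offset 50), median scaling, quantile normalization, the authors' table, other filters, a floor, the median over probes, a variance trend and leaving out each array.

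The members and lists were chosen with earlier results of these data known. Genes named by rule were the 8 members with the largest difference in each direction of each comparison among those at least 2-fold apart, members with both SPORTS arrays at least 2-fold beyond WT, a list known in muscle and the 8 brightest probes. Slc2a12, Slc4a7, Slc11a1, Slc12a4, Slc12a7, Slc16a6, Slc16a10, Slc20a1, Slc22a17, Slc28a2, Slc30a3, Slc30a5, Slc35a2, Slc35c2, Slc41a1, Slc44a1 and the partner genes shown were picked after their values were seen. Slc2a3 of the muscle list was above background on no array. Some genes of the lists are not reported here.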

Additional observations from a re-analysis of the deposited data

How the results depend on the processing

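The direction of 3 values reversed, all for probes not well above background on the exercised array and with dim values set to a floor: Slc9b2 went to 0.18 (exercised minus sedentary) and 0.054 (exercised minus WT), and Slc45a3 to 0.11 (exercised minus WT). Of the summary counts, 74 recomputed values stayed within 1.5 times and 21 moved; of the single members' tested values 637 stayed on their side of the threshold, 30 came to pass it and 25 no longer did. Of their values with no test, 204 stayed within the WT spread and 102 moved.

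With normexp background correction 19 members were at least 2-fold lower on the exercised than on the sedentary array. On the sedentary array against WT 27 members passed the test, beside 2114 of all 13328 genes. The main setting had 836 of 13326 genes there. At least 2-fold apart were 6 members in that comparison and 0 between the WT arrays. With members above background on all 4 arrays, 28 were at least 2-fold apart between the SPORTS arrays (17.6% of all genes), 15 of them lower (8.7%). In that setting 24 passed the test on the sedentary array, beside 2170 of all 11805 genes. At least 2-fold from WT were 7 on the sedentary array (3.41% of all genes) and 28 on the exercised array (16%). Without a filter these became 75 between the SPORTS arrays, 31 of them higher, and 0 passing on the sedentary array, beside 0 of all 26624 genes. At least 2-fold from WT were then 36 (sedentary) and 73 (exercised), and 16 between the WT arrays. All-gene shares at 2-fold are not given for normexp or without a filter. A floor gave 24 and a variance trend 31 passing on the sedentary array, and the median over probes gave 3 between the WT arrays. The cause of these shifts was not tested.

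Leaving out 1 array gave 0 to 79 members called for both SPORTS arrays against WT: 13 without the exercised array, 79 without the sedentary array and 0 without either WT array. The members with all SPORTS arrays at least 2-fold beyond all WT arrays numbered 7 to 43: 9 without the exercised array, 43 without the sedentary array and 7 without either WT array. No paired analysis was possible because the SPORTS groups hold 1 array each and share no more than 1 replicate number with WT. Probes near background and 4 arrays limit every value, and with 1 slide no slide effect could separate the groups.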

Other observations

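Among the tested solute carriers, 32 had more than 1 probe, and 14 further probes of 13 members were well above background on at least 2 arrays. Of these 14, 12 had the sign of the main probe between the exercised and the sedentary array. The further probes of Slc20a2 gave -1.19 and -1.06 beside -0.88, that of Slc12a2 1.05 beside 1.30 and that of Slc40a1 -1.27 beside -1.28.

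Of the 30 members at least 2-fold lower on the exercised than on the sedentary array, 26 were also at least 2-fold below WT by measured value, 19 of them above background on the exercised array or held to a bound of at least 2-fold in both comparisons, and of the 15 higher ones 10 were also at least 2-fold above WT. These comparisons share the exercised array, so genes that depart on it tend to appear in both. The same overlap over all genes was not counted, so these counts show nothing particular to solute carriers. Other values that departed on that array were those of Slc15a4, a lysosomal histidine and peptide carrier, at -1.03 and -1.05 in WT, -0.83 on the sedentary and 0.27 on the exercised array, and of Slc3a1, the heavy chain of the cystine transporter of kidney, at -0.51, -0.43, -0.48 and -1.83 in the same order. Slc66a3 was not well above background on the exercised array and at least 3.50-fold lower there than on the sedentary array, and Slc49a4, of the lysosome, was 2.02-fold higher. These 4 members were chosen after their values were seen. Further marker sums are given as multiples of the 75th percentile, in the order WT, WT, sedentary and exercised. Schwann cell and nerve markers, 5 tested of 7, summed to 9.97, 9.04, 15.3 and 5.46. Adipocyte markers, 4 of 7, summed to 21.2, 26.5, 19.4 and 10.1, and endothelial markers, 6 of 7, to 12.7, 13.1, 13.8 and 11.3. Smooth muscle markers, 5 of 5, summed to 12.5, 13.1, 14.5 and 15.2. Red blood cell markers, 3 of 6, summed to 180, 210, 106 and 135. Within the endothelial list, Cd300lg read 0.22, 0.33, -5.36 and -4.02 (log2), not well above background on either SPORTS array. It was at least 16.8-fold and 13.1-fold below WT there. From WT to the exercised array, Cdh5, Emcn, Tie1, Pecam1 and Kdr differed by -2.09, -0.81, -0.36, -0.03 and 0.20 (log2).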
